A study of Mus musculus with 9 samples.

Results

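The genes of cholesterol synthesis and of the SREBP2 program were followed in 9 RNA sequencing libraries of mouse hepatoma cells. The set has 29 named genes, with Msmo1, written Sc4mol in the deposited tables, counted once. A gene of the set was taken as measured where its name stood alone as a symbol, and its transcript with the highest mean count was used. This found 26 of the 29 among 28932 genes: 7 enzymes of the mevalonate and isoprenoid steps, 9 of the sterol steps, 6 genes of the SREBP machinery and 4 of sterol traffic and storage. The set was put together with the difference between FICZ and tryptamine in view, so that difference is described below and supports nothing. Tests of it were run over all genes and are given as counts, and nothing about the set is read from them.

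The cells are labelled Hepa 1 WT, with HC1C as the line, and were treated for 6 h. There were 3 libraries each of cells given FICZ at 10 nM, of cells given tryptamine at 50 uM, and of controls, which the labels call untreated and the treatment protocol a vehicle control. FICZ, which light forms from tryptophan, is a strong ligand of the aryl hydrocarbon receptor (AhR), and the title of the study names tryptamine, the amine formed from tryptophan, as a proligand of that receptor that needs monoamine oxidase. The doses differ, so the agents were compared only as used.

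Animal cells build cholesterol from acetyl-CoA through mevalonate, isoprenoid diphosphates, squalene and lanosterol. The transcription factor SREBP2, made by Srebf2, turns on most genes of this route when sterols in the endoplasmic reticulum run low: Scap then carries it to the Golgi, where a pair of proteases frees its active part. With ample sterol, Insig1 and Insig2 hold Scap and SREBP2 back, and liver cells are a main site of this control.

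Total counts over genes ran between 11594786 in control replicate 3 and 16715843 in FICZ replicate 2. Cyp1a1, the classical AhR target, stood at 1022, 1035 and 951 CPM, counts scaled to the size of the library, in the FICZ libraries and at 674, 682 and 754 CPM in the tryptamine libraries, against 63.9, 55.4 and 58.3 CPM in the controls. Of 8 hepatocyte and hepatoma markers, Alb, Afp, Apoa2 and Rbp4 were counted in every library, Hnf4a, Apoa1 and Ahsg had 0 counts in all 9 libraries, and Fgb had 2 counts in all. The summed level of Alb, Afp, Apoa2 and Rbp4 was 369 to 389 CPM in the FICZ libraries, 363 to 414 CPM in the tryptamine libraries and 393 to 551 CPM in the controls. Of the 5 fibroblast and stellate markers, Lrat was at 0 and Col1a1, Col3a1, Dcn and Pdgfrb were counted, with sums of 1607 to 1730 CPM under FICZ, 1605 to 1745 CPM under tryptamine and 1373 to 1675 CPM in controls. Of the 4 bile duct markers Epcam was at 0, and the sums were 932 to 988 CPM under FICZ, 897 to 992 CPM under tryptamine and 994 to 1392 CPM in controls. Of the 4 blood and endothelial markers, Cdh5 was at 0. Ptprc and Pecam1, at no more than 5 and 14 counts a library, were too low to be tested. The remaining marker, Cd68, stood at 2.02 to 4.91 CPM under FICZ, 2.52 to 4.94 CPM under tryptamine and 2.44 to 4.33 CPM in controls. With all 9 libraries 0 of the markers passed in edgeR in any comparison, and without control replicate 3, described next, Rbp4 and Col3a1 passed as higher in FICZ than in control cells, at edgeR adjusted p-values of 0.0299 and 0.0453. The hepatocyte and bile duct sums of FICZ lay below those of every control, and so did the bile duct sums of tryptamine. The part of these markers in the results below was not tested.

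Control replicate 3 stood apart. Its correlation with the other libraries on log2 CPM over genes was 0.961 to 0.967, while the lowest among the other 8 was 0.992. Against the mean of controls 1 and 2, short transcripts were high in it and long ones low, and the shortest and longest cholesterol genes mostly followed their lengths. Of the 9 whose transcript is at most 2500 nt long, 7 were higher in control 3, with a median log2 difference of 0.35, led by Pmvk at 0.96. Of the 10 over 4000 nt, 0 were higher, with a median of −0.37 and Hsd17b7 lowest at −0.83. The 7 between these lengths, Dhcr7, Sqle, Idi1, Fdft1 and Insig1 among them, were mixed. In control 3, 3 of the 7 were higher, with a median of −0.11, from −0.48 for Idi1 to 0.63 for Npc2. The log2 differences from control given below therefore come with the value without this library as well. Control levels, sums and overlaps include it except where stated.

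**Figure D1:**
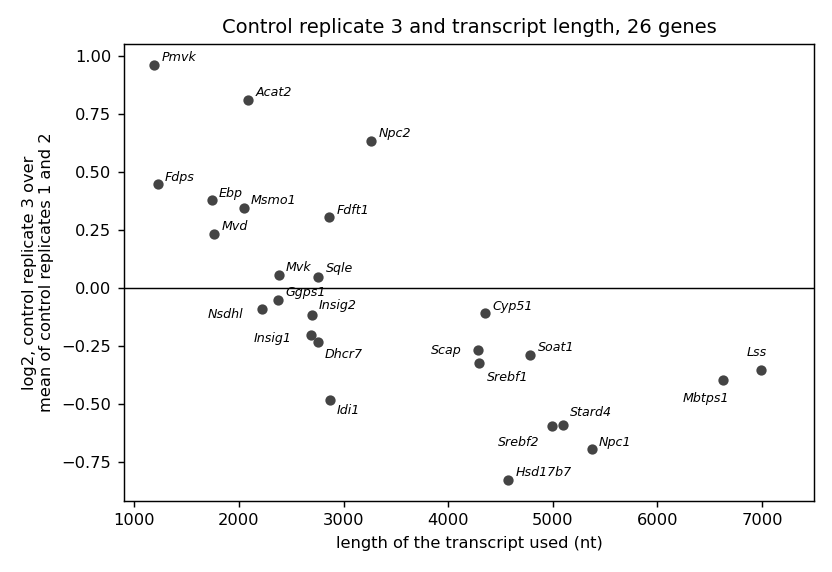
Log2 difference of control replicate 3 from the mean of control replicates 1 and 2 (vertical axis) against the length in nt of the transcript used (horizontal axis), 1 point a gene for the 26 cholesterol and SREBP genes. All 10 genes over 4000 nt lie below 0, and 7 of the 9 at or under 2500 nt lie above it.

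Of the 16 enzymes of cholesterol synthesis, 14 had a lower fitted level in FICZ than in tryptamine cells, Pmvk and Ebp being the exceptions, and 0 passed a test. The control mean lay between the means of FICZ and tryptamine for 8 of the 16, was the highest of the 3 for Acat2, Mvk, Pmvk, Fdps and Ebp and the lowest for Ggps1, Nsdhl and Hsd17b7. This order depended on control replicate 3. With the mean of controls 1 and 2 alone, Acat2, Pmvk, Fdps and Hsd17b7 also lay between, and Msmo1 was lowest in the controls. Summed over the 16 enzymes, the level was 681, 698 and 668 CPM in the FICZ libraries, 813, 821 and 781 CPM in the tryptamine libraries and 708, 728 and 763 CPM in the controls. All 3 FICZ sums lay below all 3 control sums, and all 3 tryptamine sums above them, with Sqle as the largest part of each sum. Taken singly, 0 of the 16 enzymes lay below all controls in FICZ, against 7.4% of genes tested. In tryptamine, 6 of the 16 lay above all controls, against 5.19% of genes tested. The set was chosen with these treated libraries in view, so nothing is read from the sums. Over the 7 mevalonate and isoprenoid enzymes the sums were 136, 146 and 133 CPM in FICZ, 162, 169 and 156 CPM in tryptamine and 139, 158 and 197 CPM in control libraries. There the controls overlapped both FICZ and tryptamine. In bulk RNA, fewer cells that express a gene and less of its RNA per cell cannot be told apart.

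The 4 genes that mark the set each lay lower in the FICZ than in the tryptamine libraries without overlap, against 5.85% of genes tested. They mark a set chosen with that contrast in view, so nothing is read from their separation. Dhcr7 (gene ID 13360), which makes cholesterol from 7-dehydrocholesterol in the last step of 1 branch, had 16.7, 20.1 and 17.7 CPM in FICZ cells, 29.0, 27.1 and 23.9 CPM in tryptamine cells and 24.7, 21.6 and 19.7 CPM in controls. The highest FICZ library was below the lowest tryptamine library. It was just above the lowest control, replicate 3, and below controls 1 and 2. The fitted FICZ level was 0.682 times the tryptamine level, a log2 difference of −0.55 ± 0.137 (SE, n = 3 each).

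Mvd (gene ID 192156), the decarboxylase that forms isopentenyl diphosphate, had 9.32, 11.97 and 11.4 CPM in FICZ cells, 15.8, 15.8 and 17.8 CPM in tryptamine cells and 11.4, 14.9 and 15.4 CPM in controls. Every tryptamine library exceeded every FICZ library and every control, while FICZ and control libraries overlapped. The log2 difference of FICZ from tryptamine was −0.59 ± 0.162 (SE), or 0.663 times.

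Idi1 (gene ID 319554), the isomerase of isopentenyl diphosphate, had 3.77, 4.53 and 4.24 CPM in FICZ cells, 6.60, 6.33 and 6.97 CPM in tryptamine cells and 4.53, 5.71 and 3.67 CPM in controls. FICZ and control libraries overlapped only through control replicate 3, the highest FICZ library being at 4.525 CPM and control 1 at 4.532 CPM. The tryptamine libraries lay above both groups. These levels rest on few reads, 53, 76 and 62 counts in FICZ, 97, 82 and 108 in tryptamine and 67, 83 and 43 in control libraries. The log2 difference between FICZ and tryptamine, −0.66 ± 0.205 (SE), was the lowest of the 26 genes.

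Sqle (gene ID 20775), squalene epoxidase, was read far more deeply, with 2776 to 4152 counts a library. It had 233, 225 and 223 CPM in FICZ cells, 282, 277 and 251 CPM in tryptamine cells and 228, 231 and 237 CPM in controls. FICZ and control libraries were interleaved within a narrow range, and all 3 tryptamine libraries lay above it. The log2 difference of FICZ from tryptamine was −0.25 ± 0.084 (SE), or 0.841 times.

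**Figure D2:**
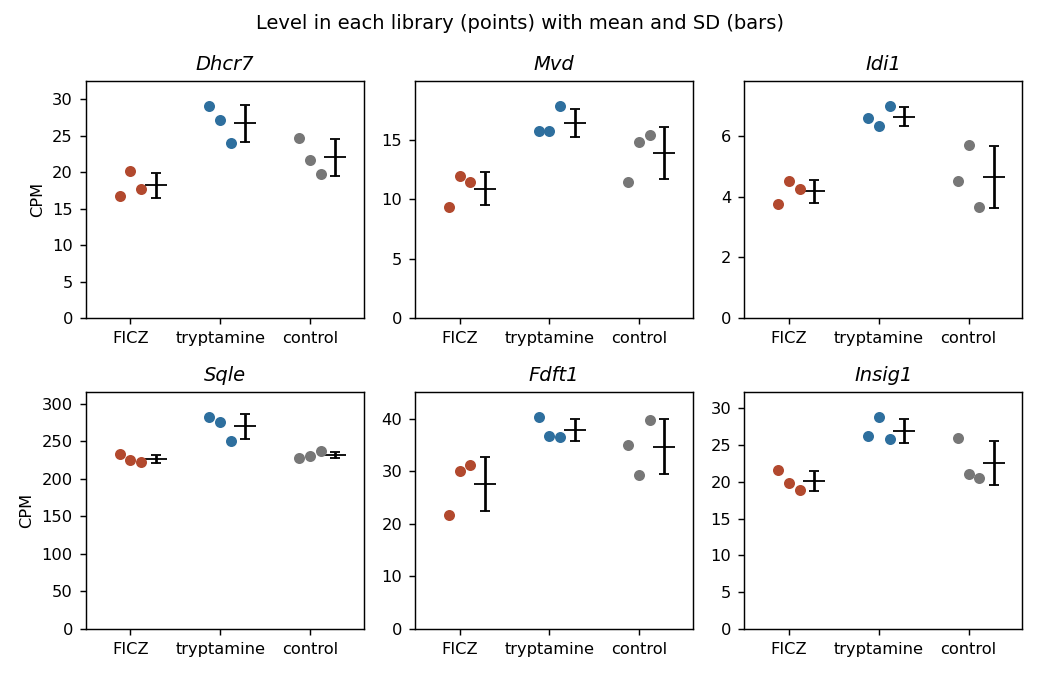
Level in CPM (vertical axis, from 0) of 6 genes in each FICZ, tryptamine and control library (points), with the mean and SD of the 3 libraries beside them (bars). In all 6 genes the tryptamine points lie above the FICZ points, and for Sqle the FICZ and control points share 1 range of 223 to 237 CPM.

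Dhcr7, Mvd, Idi1 and the feedback gene Insig1, described below, lay lower in the FICZ than in the tryptamine libraries. Their FICZ and control libraries overlapped, for Dhcr7 and Idi1 only through control replicate 3. SREBP2 is known to act on promoters beside the CCAAT-binding factor NF-Y, and a part of either in these differences was not tested. The promoters of these genes are shown. Each is the 250 bases before a RefSeq transcript start on build GRCm38.p6, 5′ to 3′ on the gene's strand, with CCAAT boxes, read as CCAAT or as ATTGG on the other strand, in capitals. They are at chr7:143829964-143830213 on the plus strand for Dhcr7 (the 1 of its 3 start windows with such a box), chr8:122443423-122443672 on the minus strand for Mvd, chr13:8885356-8885605 on the plus strand for Idi1 and chr5:28071162-28071411 on the plus strand for Insig1.
Dhcr7: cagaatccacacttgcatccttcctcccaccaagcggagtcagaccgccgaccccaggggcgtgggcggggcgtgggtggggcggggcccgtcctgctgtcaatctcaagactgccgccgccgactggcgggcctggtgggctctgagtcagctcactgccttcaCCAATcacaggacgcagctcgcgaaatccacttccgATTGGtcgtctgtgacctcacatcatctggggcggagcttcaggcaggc
Mvd: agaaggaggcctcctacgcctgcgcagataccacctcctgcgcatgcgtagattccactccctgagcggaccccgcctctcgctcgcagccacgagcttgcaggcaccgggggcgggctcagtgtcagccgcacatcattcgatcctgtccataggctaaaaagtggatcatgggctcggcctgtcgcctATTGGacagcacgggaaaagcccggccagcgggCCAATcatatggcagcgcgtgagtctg
Idi1: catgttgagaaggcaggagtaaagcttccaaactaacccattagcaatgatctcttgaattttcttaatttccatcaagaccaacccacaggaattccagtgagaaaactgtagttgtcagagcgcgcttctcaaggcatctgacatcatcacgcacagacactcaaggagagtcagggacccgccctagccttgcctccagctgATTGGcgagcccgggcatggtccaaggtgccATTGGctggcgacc
Insig1: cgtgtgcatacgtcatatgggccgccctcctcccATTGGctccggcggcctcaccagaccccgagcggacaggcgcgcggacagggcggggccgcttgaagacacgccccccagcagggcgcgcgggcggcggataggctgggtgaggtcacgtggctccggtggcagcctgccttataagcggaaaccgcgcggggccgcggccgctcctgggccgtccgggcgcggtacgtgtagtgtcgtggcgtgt

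The boxes begin 85 and 49 bases before the start in Dhcr7, 60 and 27 in Mvd, 45 and 14 in Idi1 and 216 in Insig1. RefSeq windows from 250 bases before to 50 after a start were at hand for 21 of the 26 genes, 5 of them with several windows. The genes without an entry were Fdps, Fdft1, Sqle, Stard4 and Npc1. A CCAAT box on either strand was present for 18 of the 21, Acat2, Scap and Mbtps1 being the ones without, against 41.1% of all 27025 genes with a window and 43.5% of the 9145 such genes tested here. The sterol response element core TCACNCCAC was in 0 of the 21 (1.44% of all genes), and its looser form TCANNCCAC, which takes in every match of the core, was also in 0 of the 21 (4.78% of all genes). The Sp1 box GGGCGG was in 19 of the 21, against 38.2% of all genes and 69.1% of those tested. The AhR core GCGTG was in 15 of the 21, against 35.2% of all genes and 56.4% of those tested. A match is a run of letters in these windows and does not mark a bound site. Only exact letters were searched, and both patterns of the sterol response element are rare over all genes. Their absence from these windows does not show that a gene lacks such an element.

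Over the set, the libraries of FICZ lay below those of tryptamine without overlap for 12 of the 26 genes, against 5.85% of the 12372 genes tested, and above them for 0 of the 26, against 5.46%. These counts describe the contrast that chose the genes, and nothing is read from them. The 12 were 9 of the 16 enzymes, Srebf2, Insig1 and Stard4. In edgeR's quasi-likelihood test with Benjamini-Hochberg adjustment, 0 of the 26 genes and 0 of the 12372 tested (0%) passed an adjusted p of 0.05 between FICZ and tryptamine. At an unadjusted p under 0.05 there were 87 higher and 127 lower genes in all, 0 and 6 of them in the set, and DESeq2's Wald test passed 10 genes, 0 of them in the set. Without control replicate 3, 17 of 12539 genes (0.136%) passed and again 0 of the 26.

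The median log2 difference between FICZ and tryptamine was −0.21 over the 16 enzymes, 14 of which were below 0, and −0.19 over the 26 genes, against −0.003 over all genes tested. The 2 enzymes above 0 were Pmvk, phosphomevalonate kinase, at 0.08 ± 0.287 (SE), and Ebp, a sterol isomerase, at 0.04 ± 0.134 (SE). Both differences were far within their error.

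**Figure D3:**
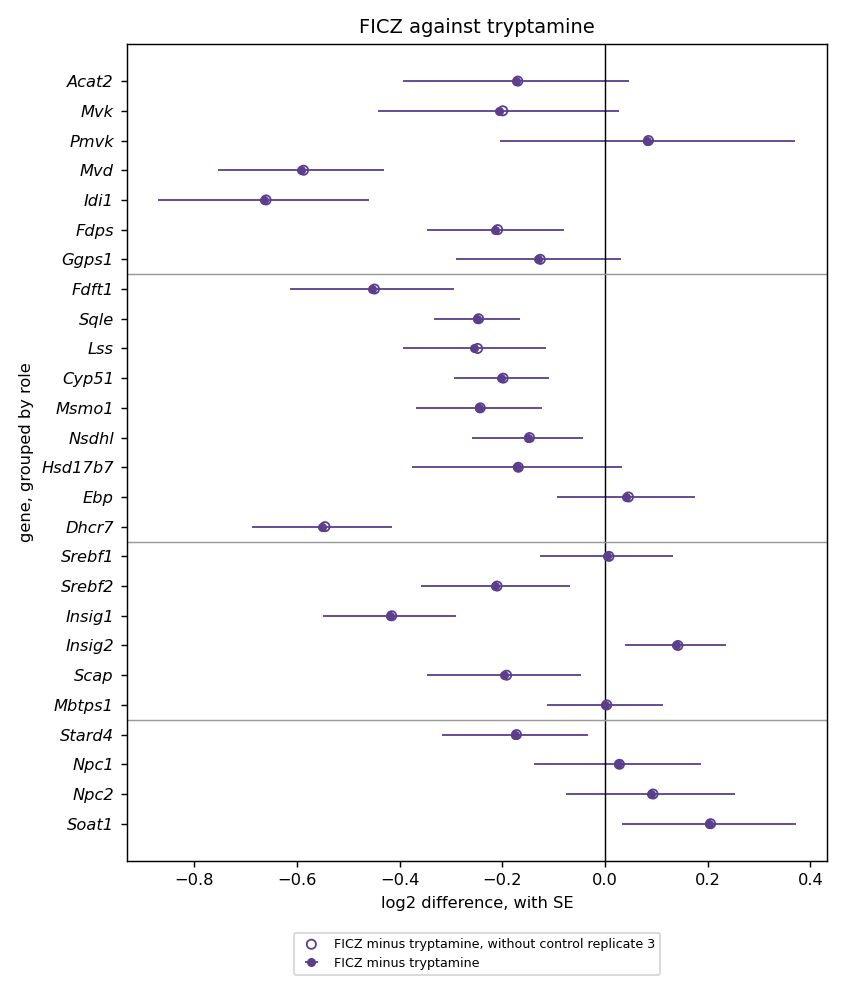
Log2 difference of FICZ from tryptamine for each of the 26 genes, grouped by role, with the SE from the edgeR fit (bars) and the value without control replicate 3 (open). Most enzymes lie left of 0, between −0.66 for Idi1 and 0.08 for Pmvk, and the sterol traffic genes lie around 0.

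Among the mevalonate and isoprenoid steps, Fdps, which makes farnesyl diphosphate, had 71.2, 78.9 and 67.3 CPM in FICZ cells, 82.4, 87.5 and 82.3 CPM in tryptamine cells and 77.7, 81.9 and 109 CPM in controls. The FICZ and tryptamine libraries did not overlap, and the high control was replicate 3. The other 4 genes overlapped between FICZ and tryptamine. Ggps1, which makes geranylgeranyl diphosphate outside the sterol route, had 16.6 ± 2.01 CPM in FICZ cells, 18.2 ± 1.996 CPM in tryptamine cells and 13.8 ± 2.28 CPM in controls (SD, n = 3 each). Acat2, the cytosolic thiolase, Mvk, mevalonate kinase, and Pmvk had mean levels of 8.74 to 15.4 CPM in the treated groups. The log2 difference of FICZ from tryptamine was −0.17 ± 0.220 for Acat2 and −0.21 ± 0.235 for Mvk (SE), within their error like that of Pmvk.

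Among the sterol steps, Fdft1, squalene synthase, had 21.7, 30.0 and 31.1 CPM in FICZ cells, 40.3, 36.8 and 36.5 CPM in tryptamine cells and 35.0, 29.2 and 39.7 CPM in controls. FICZ replicate 1 was the lowest of all 9 libraries, and the other 2 FICZ libraries overlapped the controls. The log2 difference of FICZ from tryptamine was −0.45 ± 0.159 (SE).

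Cyp51, the lanosterol demethylase, had 89.4, 89.7 and 81.6 CPM in FICZ cells, 101, 102 and 97.0 CPM in tryptamine cells and 91.4, 96.1 and 86.9 CPM in controls. Msmo1, the C-4 methylsterol oxidase, had 50.5, 50.9 and 48.1 CPM in FICZ cells, 57.9, 54.8 and 64.6 CPM in tryptamine cells and 49.6, 47.9 and 61.9 CPM in controls. Both followed the same order, tryptamine above FICZ in every library. Nsdhl, which works with Msmo1 in removing the C-4 methyl groups, had 24.9, 23.8 and 25.8 CPM in FICZ cells, 25.9, 28.5 and 28.3 CPM in tryptamine cells and 25.5, 23.5 and 23.0 CPM in controls, so that FICZ and tryptamine were parted by a gap of less than their SDs of 0.977 and 1.43 CPM.

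The remaining 3 sterol enzymes overlapped between FICZ and tryptamine. Lss, lanosterol synthase, had 34.2 ± 3.85 CPM in FICZ cells, 40.9 ± 3.48 CPM in tryptamine cells and 35.8 ± 5.26 CPM in controls (SD, n = 3 each). Hsd17b7, the 3-keto sterol reductase, averaged 46.5 ± 3.08 CPM with FICZ, 52.4 ± 4.88 CPM with tryptamine and 41.8 ± 14.0 CPM in controls, the wide control SD coming with 27.6 CPM in replicate 3. Ebp averaged 29.0 ± 1.28 CPM with FICZ, 28.2 ± 2.19 CPM with tryptamine and 33.4 ± 5.39 CPM in controls, or 30.4 CPM over controls 1 and 2.

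**Figure D4:**
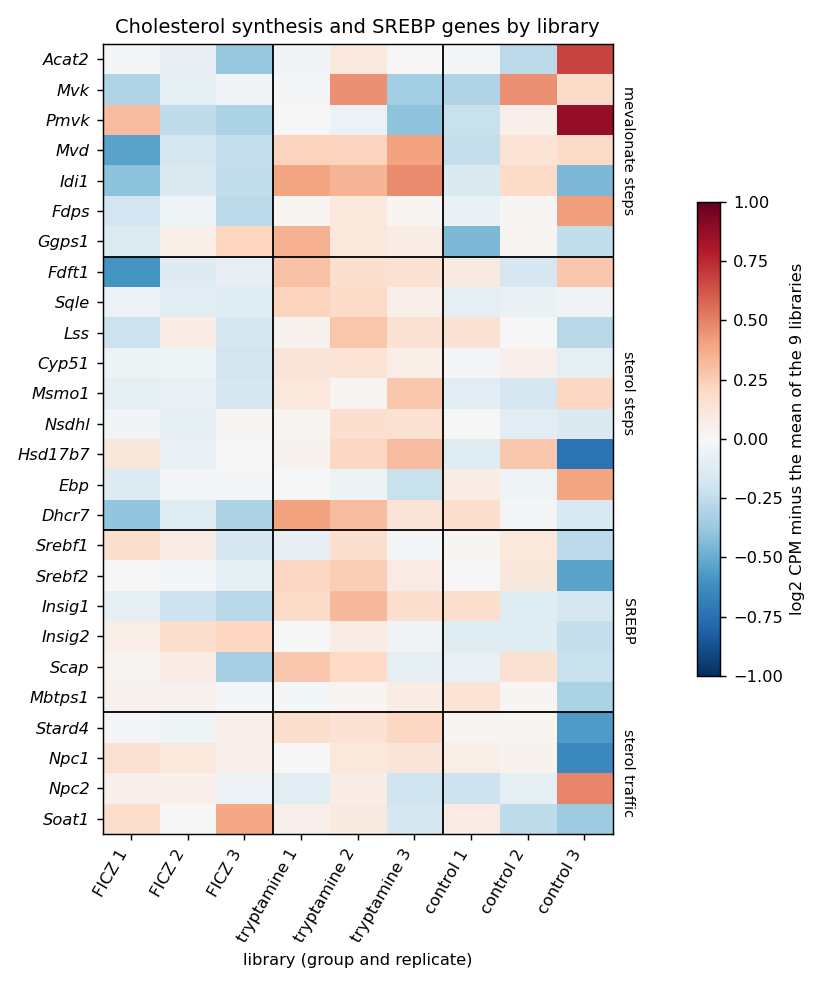
Log2 CPM of the 26 genes in each library minus the mean of the 9 libraries (colour), with genes in rows by role and FICZ, tryptamine and control libraries in columns. The 3 tryptamine columns are mostly red and the 3 FICZ columns mostly blue over the enzymes, and the column of control replicate 3 holds both the strongest red, Pmvk, and the strongest blue, Hsd17b7.

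The abundance of the enzymes was uneven. Per kb of transcript, Sqle stood highest at 82.3 CPM per kb in FICZ cells, 97.8 in tryptamine cells and 84.0 in controls. Fdps came next at 59.3 CPM per kb in FICZ cells, 68.8 in tryptamine cells and 73.2 in controls. Idi1 was lowest, at 1.46 CPM per kb in FICZ cells, 2.31 in tryptamine cells and 1.62 in controls. The other 13 enzymes lay between 4.64 CPM per kb, for Mvk in FICZ cells, and 28.9 CPM per kb, for Msmo1 in tryptamine cells.

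In the SREBP machinery, Srebf2, which encodes SREBP2 and is itself one of its targets, had 248, 246 and 232 CPM in FICZ cells, 286, 293 and 263 CPM in tryptamine cells and 248, 268 and 171 CPM in controls. FICZ and tryptamine libraries did not overlap, and control 3 lay far below the rest. Insig1, both a retention protein and a target of SREBP2, had 21.6, 19.9 and 18.9 CPM in FICZ cells, 26.3, 28.8 and 25.8 CPM in tryptamine cells and 25.97, 21.1 and 20.5 CPM in controls. The FICZ and tryptamine libraries were apart by more than their SDs of 1.37 and 1.62 CPM, with a log2 difference of −0.42 ± 0.130 (SE).

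Insig2, the second retention protein, ran the other way. It had 54.0, 58.1 and 59.9 CPM in FICZ cells, 51.6, 54.3 and 50.5 CPM in tryptamine cells and 47.5, 47.7 and 43.9 CPM in controls. FICZ and tryptamine overlapped at 54 CPM, and both lay above every control.

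Srebf1, which encodes SREBP1, the partner more tied to fatty acid synthesis, had 98.0, 92.7 and 78.2 CPM in FICZ cells, 83.0, 98.3 and 87.1 CPM in tryptamine cells and 88.9, 94.4 and 73.4 CPM in controls. Scap had 54.6, 56.6 and 42.7 CPM in FICZ cells, 64.5, 61.6 and 50.3 CPM in tryptamine cells and 50.9, 59.6 and 45.9 CPM in controls. Mbtps1, the site-1 protease, averaged 256 ± 5.63 CPM with FICZ, 256 ± 7.32 CPM with tryptamine and 245 ± 38.3 CPM in controls. These 3 genes overlapped in all 3 comparisons. The log2 difference of FICZ from tryptamine was 0.003 ± 0.130 for Srebf1, −0.20 ± 0.150 for Scap and −0.0003 ± 0.113 for Mbtps1 (SE).

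In sterol traffic, Stard4, a cytosolic sterol carrier and SREBP2 target, had 125, 122 and 130.3 CPM in FICZ cells, 142, 139 and 145 CPM in tryptamine cells and 128, 127 and 84.7 CPM in controls. The tryptamine libraries lay above all the others, and control 3 again far below. Soat1, which esterifies cholesterol for storage, had 13.7, 12.03 and 15.8 CPM in FICZ cells, 12.5, 12.8 and 10.7 CPM in tryptamine cells and 12.8, 10.1 and 9.38 CPM in controls, with overlap throughout.

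Npc1, which exports cholesterol from lysosomes, had 106, 102 and 98.4 CPM in FICZ cells, 94.8, 103 and 104 CPM in tryptamine cells and 99.8, 97.6 and 61.0 CPM in controls. Its partner Npc2 averaged 128 ± 5.58 CPM with FICZ, 121 ± 11.8 CPM with tryptamine and 136 ± 36.9 CPM in controls. Over controls 1 and 2 alone, the mean of Npc2 was 115 CPM. Neither Npc1 nor Npc2 separated any pair of groups.

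Against the controls, FICZ libraries overlapped for 25 of the 26 genes. In the comparison of FICZ with control, 0 of the 26 genes passed an adjusted p of 0.05 in edgeR, against 14 of 12372 genes (0.113%), all 14 of them higher. At an unadjusted p under 0.05 there were 1 higher and 1 lower gene in the set and 435 higher and 569 lower genes in all, and DESeq2's Wald test passed 54 genes in all and 0 in the set. FICZ libraries lay below all controls for 0 of the 26, against 7.4% of genes tested, and above all controls for 1 of the 26, Insig2, against 8.21%. Without control 3, which leaves 2 controls to overlap with, they lay below for 2 of the 26, against 14% of genes, and above for 2, against 13.9%.

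Insig2 differed from control by 0.31 ± 0.098 in log2 (SE) and by 0.27 without control 3, with an adjusted p of 0.601 in edgeR's test and of 0.269 without control replicate 3. All 3 FICZ libraries exceeded the highest control. The median log2 difference of FICZ from control over the 16 enzymes was −0.18, with 13 below 0, and −0.09 with 12 below 0 without control 3, against −0.006 over all genes. Without control 3, 101 of 12539 genes (0.805%) passed and 0 of the 26.

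Dhcr7 had a log2 difference of FICZ from control of −0.28 ± 0.137 (SE) and an edgeR adjusted p of 0.601, or −0.34 and 0.338 without control 3. For Mvd it was −0.35 ± 0.163 (SE), and −0.27 without control 3. For Fdps it was −0.30 ± 0.134 (SE), and −0.14 without control 3. For Sqle it was −0.03 ± 0.084 (SE), with a 95% interval of −0.22 to 0.15, and −0.02 without control 3.

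In tryptamine cells, 8 genes lay above every control library, and 0 of the 26 passed. In edgeR, 1 of 12372 genes (0.00808%) passed an adjusted p of 0.05 between tryptamine and control. At an unadjusted p under 0.05 there were 4 higher and 0 lower genes in the set and 270 higher and 367 lower genes in all, and DESeq2's Wald test passed 12 genes in all and 0 in the set. Tryptamine libraries lay above all controls for 8 of the 26 genes, against 5.19% of genes tested, and below all controls for 0 of the 26, against 4.87%. Without control 3 the 8 became 10, against 9.85% of genes. The set was chosen with the difference of these tryptamine libraries from FICZ in view, which favours high tryptamine values, so nothing about the set is read from these counts.

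The 8 were the enzymes Mvd, Idi1, Ggps1, Sqle, Cyp51 and Nsdhl, together with Insig2 and Stard4. The median log2 difference of tryptamine from control was 0.17 over the 16 enzymes and 0.17 over the 26 genes, against 0.004 over all genes, and 0.16 and 0.11 without control 3. The median over the 7 mevalonate and isoprenoid enzymes was −0.08 with control 3 and 0.15 without it. That over the 9 sterol enzymes was 0.19 with control 3 and 0.17 without it, with 8 of 9 above 0 either way.

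Sqle, with the most reads among the enzymes, had a log2 difference of tryptamine from control of 0.22 ± 0.084 (SE). Its edgeR adjusted p was 0.741, and 0.369 without control replicate 3, where the difference was 0.23. Idi1 differed by 0.51 ± 0.205 (SE) and by 0.37 without control 3. The long transcripts Srebf2 and Stard4 depended more on that library. Srebf2 differed from control by 0.29 ± 0.145 (SE) and by 0.12 without it. Stard4 differed by 0.33 ± 0.143 (SE) and by 0.15 without it. Without control 3, 25 of 12539 genes (0.199%) passed between tryptamine and control and 0 of the 26. The comparisons with control share the 3 control libraries, so their values are not independent of each other.

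**Figure D5:**
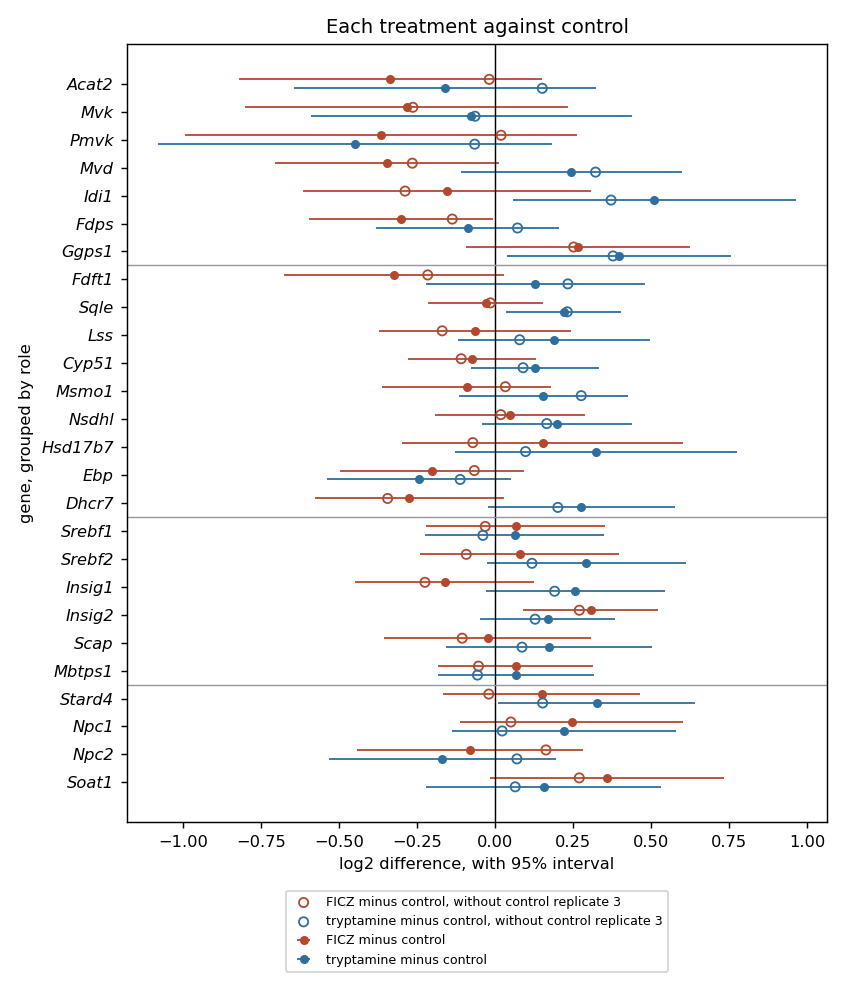
Log2 difference from control of FICZ and of tryptamine for each of the 26 genes, with 95% intervals from the edgeR fit on all 9 libraries (filled) and the value without control replicate 3 (open). Tryptamine lies right of FICZ for most enzymes, and for long transcripts such as Srebf2 and Stard4 the open symbols lie left of the filled ones.

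The tables list further transcripts for each gene, which share reads and so are not separate measurements. With a mean of at least 20 counts and repeats of the same counts left out, 10 of 10 Dhcr7 rows, 6 of 6 Mvd rows, 4 of 4 Idi1 rows, 7 of 7 Sqle rows, 6 of 6 Fdft1 rows, 8 of 8 Srebf2 rows and 5 of 5 Insig1 rows had a lower mean in FICZ than in tryptamine. So did all rows of Acat2, Mvk, Fdps, Cyp51, Msmo1, Nsdhl, Hsd17b7 and Stard4, 8 of 10 rows of Ggps1, 13 of 15 of Lss, 11 of 17 of Scap and 6 of 8 of Mbtps1. Fewer rows were lower for Ebp, 2 of 8, Srebf1, 4 of 20, Insig2, 1 of 16, and Npc1, 2 of 13, and 0 were for Pmvk, of 6, Npc2, of 7, and Soat1, of 5. Rows lower without overlap were all of those of Mvd, Idi1, Sqle and Insig1. They were 7 of 10 for Dhcr7, 5 of 6 for Fdft1, 3 of 4 for Fdps and 6 of 8 for Srebf2. For Cyp51 they were 7 of 12, for Msmo1 6 of 10, for Nsdhl 1 of 5 and for Stard4 1 of 13. Nothing is read from these counts.

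The authors' deposited tables give a test for each transcript. In the authors' deposited table of FICZ over tryptamine, 104 of 131078 transcripts (0.0793%) were under an adjusted p of 0.05, and of the 26 rows used here 1 was, Dhcr7. That is the contrast that chose the genes, and nothing is read from it. In the authors' deposited table of FICZ over control, 7345 of 130882 transcripts (5.61%) were, and of the 26 rows 1 was, Fdps at 0.0372, with a log2 fold change of −0.37 there. In the authors' deposited table of tryptamine over control, 1890 of 130766 (1.45%) were and 0 of the 26, the lowest being Pmvk at 0.264. The authors' deposited lists of 81 genes higher with FICZ and 22 higher with tryptamine hold 0 of the 26.

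The 3 genes of the set without a symbol row of their own were Hmgcs1, Tm7sf2 and Mbtps2. Mbtps2, the site-2 protease, shares an entry with Yy2, an overlapping gene, at 590, 727 and 686 counts in FICZ, 687, 492 and 693 counts in tryptamine and 597, 642 and 312 counts in control libraries, without scaling. These reads may come from either gene, so they were not used for the set. A RefSeq transcript of Tm7sf2, a sterol reductase, stood under another symbol with 1 to 9 counts a library, and Hmgcs1 is not analysed here.

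Genes around the set were read for comparison, from lists of related pathways, and 0 of them passed in edgeR in any of the 3 comparisons with or without control 3. Of the 47 tested, an unadjusted p under 0.05 was reached by 0 between FICZ and tryptamine, by 1 higher and 4 lower between FICZ and control and by 2 higher and 1 lower between tryptamine and control, and DESeq2's Wald test passed 0 in each. Fabp5, Nr1h3 and Rnf139 in these lists were read from entries naming several loci. Of 12 fatty acid genes tested that answer to SREBP1, 5 lay lower in FICZ than in tryptamine libraries without overlap (Acly, Scd1, Scd2, Me1 and Fads1), against 5.85% of all genes tested, and 0 lay higher, against 5.46%, with a median log2 difference of −0.08. Scd2, a desaturase and the most abundant of the list, had 2229, 2169.6 and 2165 CPM in FICZ cells, 2427, 2482 and 2447 CPM in tryptamine cells and 2216, 2312 and 1712 CPM in controls. Lpin1, a phosphatidate phosphatase, had the smallest p of the list against control, with 13.3, 15.2 and 18.5 CPM in FICZ cells, 14.5, 14.9 and 15.4 CPM in tryptamine cells and 12.4, 11.8 and 7.17 CPM in controls. Its log2 difference from control was 0.57 ± 0.205 (SE) for FICZ and 0.51 ± 0.206 (SE) for tryptamine, and 0.37 and 0.30 without control 3. Its edgeR adjusted p was 0.601 for FICZ and 0.741 for tryptamine. Me1, which supplies NADPH, had 123, 118 and 127 CPM in FICZ cells, 134, 141 and 145 CPM in tryptamine cells and 137, 122 and 128 CPM in controls.

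The share of all genes without overlap between FICZ and tryptamine, 5.85% lower and 5.46% higher, is also that to set beside the counts that follow, which are of few genes. Of 6 further genes linked to SREBP2, 1 lay lower without overlap, Tmem97, a sterol-regulated membrane protein, at 52.0 ± 2.44 CPM with FICZ, 58.3 ± 2.19 CPM with tryptamine and 65.5 ± 15.0 CPM in controls. Its tryptamine libraries overlapped the controls, of which control 3 was the highest at 81.0 CPM. Of 10 genes of the isoprenoid branches that lead to ubiquinone, dolichol and protein prenylation, 1 lay lower in FICZ than in tryptamine, Coq2, and the median log2 difference was 0.04. Of 4 genes of sterol export and LXR, 0 separated FICZ from tryptamine, with a median of −0.05. Nr1h3, an LXR gene at 3.28 to 8.73 CPM a library, had the smallest p of these, with a log2 difference of −0.51 ± 0.281 (SE) and overlapping libraries. Of 10 genes for degradation of sterol sensors, Erlin1 and Vcp lay lower, with a median of −0.01. Of the 5 promoter partners of SREBP, Nfyc, a subunit of NF-Y, lay higher, with a median of 0.02.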

How the data were processed

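The authors deposited 1 table for each pair of groups with counts of reads per transcript and library, whole numbers without normalization per the file headers. The same deposited tables hold the authors' adjusted p-values and, for each pair, log2 fold changes. DESeq is named in the submitters' processing notes. Nothing names an aligner, counting rule or build (not given in the sources used here). The genes of the set and all lists were chosen with earlier results of these data known. Of 189660 transcripts, 162807 had a gene, and 3.56 to 4.23% of counts without one were left out. The transcript with the highest mean count stood for each gene, since reads count for several transcripts (sums gave 5.37 to 5.62 times the total).

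All 9 libraries entered 1 fit in edgeR 4.0.16 (R 4.3.3), scaled by TMM and filtered with filterByExpr, and group was the only term. The filter kept 12372 genes, all 26 of the set among them. A gene passed at a Benjamini-Hochberg adjusted p under 0.05 over all genes tested. SE is the log2 difference divided by the square root of F. CPM are counts relative to the effective library size, and SDs are over 3 libraries. The labels do not say that libraries of a group came from separate cultures, so p-values measure the spread between these samples, which may be technical. Genes given with values in every library were the 4 markers, Srebf1, Srebf2, Scap, Insig1, Insig2, Soat1, Npc1 and Stard4, and each gene whose FICZ and tryptamine libraries did not overlap. For other lists, the genes with the smallest p between FICZ and tryptamine were named, and Acly, Scd1, Fads1, Lpin1, Vcp, Rbp4, Col3a1 and Fdps in the authors' table were named after their values were seen. Alternatives were DESeq2 1.42.0 size factors and Wald test, other filters, sums over transcripts, 6 libraries, a replicate block and leaving out each library.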

Additional observations from a re-analysis of the deposited data

How the results depend on the processing

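Under all 16 alternatives, 0 of the 26 genes passed in any comparison. Over the 16 enzymes the median log2 difference stayed between −0.24 and −0.19 for FICZ against tryptamine and between 0.13 and 0.18 for tryptamine against control. For FICZ against control it lay between −0.22 (without FICZ replicate 2) and −0.090 (without control replicate 3) when 1 library was left out. Genes lower in FICZ than in tryptamine without overlap numbered 11 to 15, while the share of all genes ran between 4.38 and 11.97%. Genes higher in tryptamine than in control numbered 7 to 12, with 4.03 to 11.3% of all genes. For FICZ against control, 1 gene lay lower in the sums over transcripts, and with 1 library left out 0 to 3 lay lower and 2 to 4 higher. Groups of 2 libraries overlap less often than groups of 3 by construction.

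Counts over all genes moved more. For FICZ against tryptamine, 10 passed in DESeq2's Wald test, 17 with only the 6 libraries compared, and 0 to 17 with 1 library left out, 17 without control replicate 3. For FICZ against control, 54 passed in the Wald test, 26 without a filter, 4 in sums over transcripts, 2 with 6 libraries, and 4 to 101 with 1 library left out, 101 without control replicate 3. For tryptamine against control, 12 passed in the Wald test, 2 without a filter, 2 in sums over transcripts, and 1 to 25 with 1 library left out, 25 without control replicate 3. The cause was not tested. With the replicate number as a block, 4 genes passed between FICZ and control, 0 between FICZ and tryptamine and 1 between tryptamine and control, 0 of them in the set. Same-numbered libraries correlated at −0.089 to 0.179 in their deviations from group means, and libraries of unlike number at −0.195 to 0.145. The same-numbered values were 0.051, 0.075 and 0.179 between FICZ and tryptamine and −0.083 to −0.058 between FICZ and control. Between tryptamine and control they were −0.089 to 0.055. With 3 libraries a group, these values cannot settle whether the numbers pair the samples. Depth limits Idi1 most, at 43 to 108 counts a library.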
